A study of Mus musculus with 4 samples.

Results

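The mitochondrial solute carriers are the proteins of the SLC25 family, and their genes were followed in the quadriceps of wild-type (WT) mice and of mice without the muscle-specific α2 exon of Mef2d. All rows of the deposited table whose symbol is Slc25a followed by a number alone, and that had at least 1 count, were taken as members. This gave 46 genes of 51826 rows, and 39 of the 46 passed the filter on low counts that left 16120 genes for testing. A further row of the same pattern, Slc25a54, had no count in any mouse and was left out by the rule.

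The inner mitochondrial membrane lets few solutes through by itself. SLC25 carriers, which share a fold of repeated membrane-spanning helices, move nucleotides, phosphate, organic acids, amino acids, acylcarnitines, cofactors and metal ions across it, most often as an exchange of one solute for another. In skeletal muscle they export the ATP made by oxidative phosphorylation, bring in phosphate and ADP, carry fatty acids in as acylcarnitines and pass reducing equivalents inward through the malate-aspartate shuttle.

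MEF2D is a transcription factor whose α1 and α2 exons are used in alternation, and the study asked how loss of the α2 exon alters gene expression in muscle. RNA was taken from the quadriceps of 2 WT and 2 Mef2dα2 Eko (exon knockout) mice, all male, sedentary, about 20 weeks old, on C57BL6/J background, fed standard chow under equal periods of light and dark, with muscles taken inside a window of about 1 hour. The Eko allele was made with CRISPR-Cas9 and is carried in the germline, so it is deleted in every tissue and not in muscle alone, it leaves the α1 exon in place, and the mice were littermates from crosses of heterozygotes. Of the founder lines that the study kept, the one the sequenced mice belong to is not given in the sources used here.

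PolyA-selected RNA of each mouse gave 1 library, and total expected counts were between 72626757 and 85176059. At this depth 3 counts, taken as the floor of detection, equal 0.0348 to 0.0419 CPM, counts scaled to a common library size, which covers counting error only. The carriers took between 0.356% and 0.408% of all counts. Of the 5 muscle fiber markers examined, all were abundant, with Acta1, the skeletal actin, between 20812 and 23462 CPM. The per-gene counts do not separate the exons of Mef2d, so they do not check the deletion, and Mef2d as a whole had a log2 fold change of 0.02 (standard error 0.08). Log2 fold changes here are Eko against WT, levels in CPM are after TMM normalization, and p-values are from edgeR's quasi-likelihood test unless DESeq2 is named, with Benjamini-Hochberg adjustment over all genes tested.

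The carrier transcripts of quadriceps were dominated by very few genes. On the scale of CPM per kb of coding transcript, which allows genes of different length to be compared, Slc25a4, the ADP/ATP carrier of heart and skeletal muscle, had a mean level of 1180. Slc25a3, the phosphate carrier, followed at 251, and Slc25a11, the oxoglutarate/malate carrier, at 76.3. Slc25a12, the aspartate/glutamate carrier of muscle and brain, stood at 49.8, and between these genes the ranges over the 4 mice did not overlap. The next genes were Slc25a20, the carnitine/acylcarnitine carrier (24.8 CPM per kb), Slc25a25, a calcium-dependent ATP-Mg/phosphate carrier (21.3), Slc25a51, the NAD carrier (18.02), and Slc25a28, the mitoferrin found in most tissues (17.1). The place of Slc25a25 rested on 1 mouse, since its levels were 9.57 and 43.8 CPM per kb in WT and 13.8 and 18.01 CPM per kb in Eko mice, below Slc25a51 in 3 of the 4 mice. Slc25a39, the glutathione carrier, was at 16.7 and Slc25a5, the ADP/ATP carrier of most other tissues, at 15.7, and the order of Slc25a51, Slc25a28, Slc25a39 and Slc25a5 did not hold across mice, since the range of each overlapped that of the next. The lowest of the genes tested was Slc25a13, the aspartate/glutamate carrier of liver, at 0.245 CPM per kb.

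**Figure D1:**
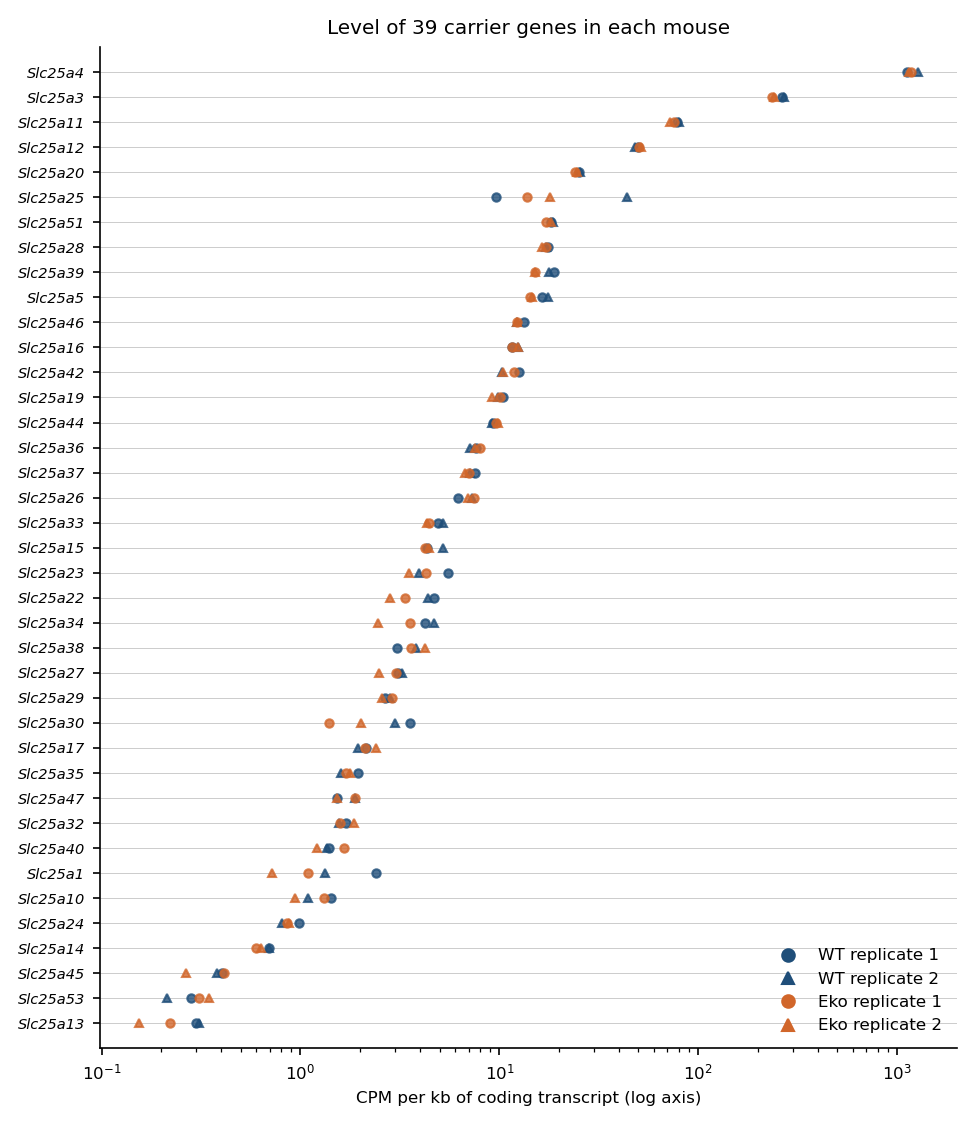
Level of each of the 39 carrier genes that passed the filter, in CPM per kb of coding transcript on a log axis, with 1 symbol per mouse (blue, WT; orange, Eko; circle, replicate 1; triangle, replicate 2). Genes are ordered by mean level, from Slc25a4 at 1180 to Slc25a13 at 0.245, and Slc25a25 is the gene whose WT mice lie farthest apart.

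Summed over the 46 genes, the carriers reached 3637 and 4019 CPM in the WT mice and 3674 and 3617 CPM in the Eko mice. The genotypes overlapped, and the exact two-sided permutation test gave p = 0.667, where 2 mice against 2 cannot go below 0.333. Slc25a4 alone made up 59.5% and 61.0% of this sum in WT and 61.8% and 60.8% in Eko mice. Without Slc25a4, the sum was 1473 and 1568 CPM in WT and 1404 and 1417 CPM in Eko mice, so both Eko mice lay below both WT mice (exact permutation test, p = 0.333).

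The most abundant carriers, from Slc25a4 to Slc25a20, had log2 fold changes between -0.17 and 0.06. None of the 39 carriers passed an adjusted p of 0.05 in edgeR, where 0.416% of all genes tested did (0.310% lower and 0.105% higher in Eko mice), so a count of 0 among 39 is near this background. At an unadjusted p below 0.05 there were 7 of 39 (17.9%), all of them lower in Eko mice, while of all genes tested 11.6% passed, with 6.41% lower and 5.15% higher. The 7 were Slc25a30, Slc25a22, Slc25a39, Slc25a34, Slc25a1, Slc25a5 and Slc25a3, and the smallest adjusted p among them was 0.131. The likelihood ratio test of edgeR called 2 carriers, where it called 1.94% of all genes, and limma-voom called 0, where it called 0.354%. DESeq2, the tool of the study, also called 2 of 39, Slc25a30 and Slc25a22, both lower in Eko mice, where 1.40% of the 13307 genes with an adjusted p were called lower, 0.992% higher and 2.39% in either direction.

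Most of the carriers lay slightly lower in the Eko mice. The log2 fold change was below 0 for 29 of 39 carriers (74.4%) against 51.3% of all genes tested, and its median was -0.06 against -0.01. Both Eko mice were below both WT mice for 15 carriers (38.5%), as they were for 22.96% of all genes, and above them for 3 carriers, Slc25a12, Slc25a44 and Slc25a53, as for 20.8% of all genes. The genotypes thus did not overlap for 18 carriers, against 43.8% of all genes, and overlapped for the other 21. In size, 20 of 39 carriers had a log2 fold change within 0.1 of 0 (51.3%, against 38.2% of all genes), and 6 were beyond 0.5 (15.4%, against 11.2%), all 6 toward lower levels in Eko mice. Genes of one family are not replicates, so these counts describe the family and carry no test. In whole muscle, a smaller number of cells of a type and less RNA in each cell cannot be told apart.

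**Figure D2:**
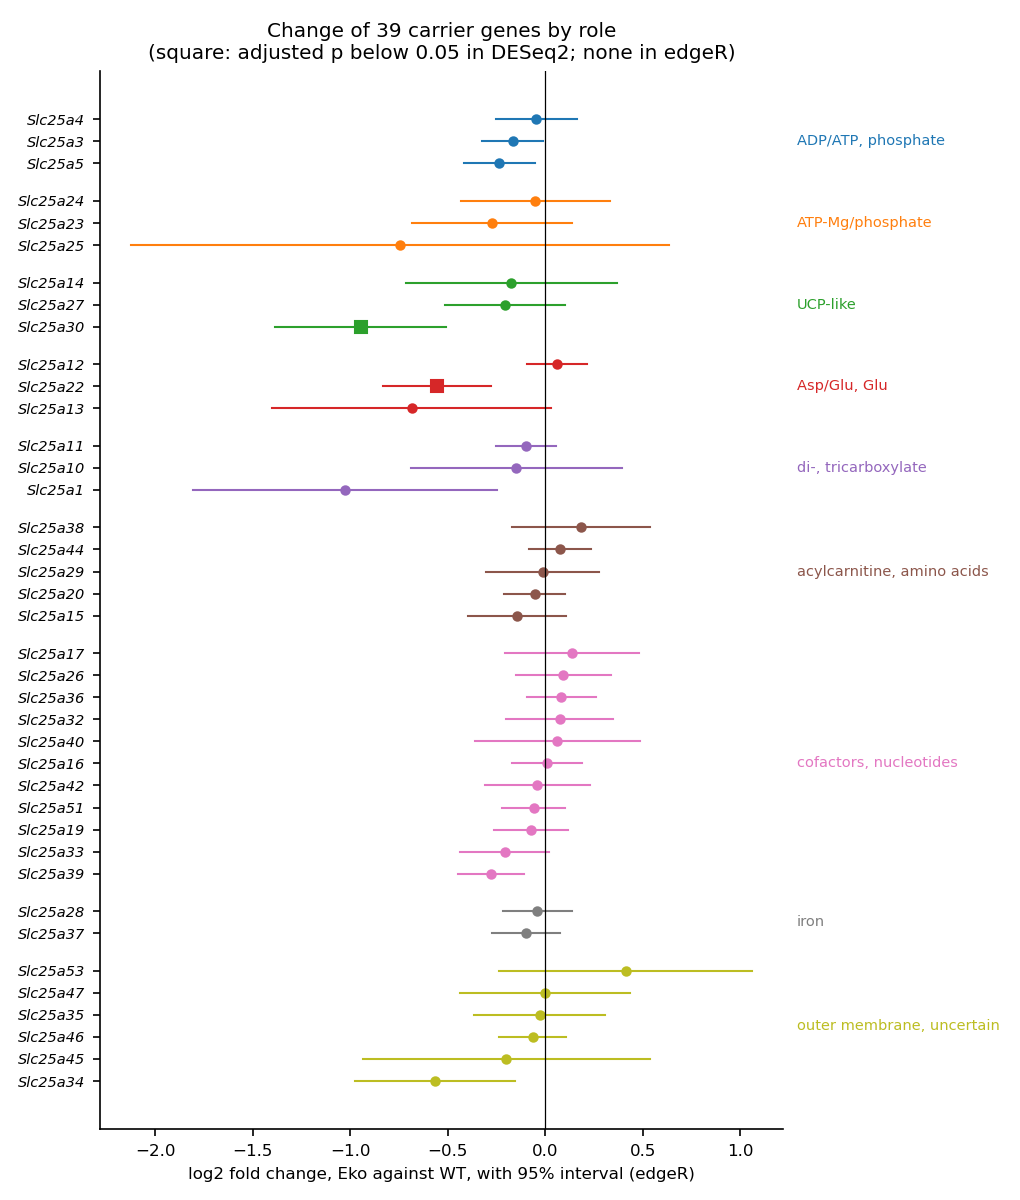
Log2 fold change of each of the 39 carrier genes, Eko against WT, grouped by role, with the 95% interval from edgeR uncorrected for the number of genes. Points left of 0 are lower in Eko mice, and the squares mark Slc25a30 and Slc25a22, the genes with an adjusted p below 0.05 in DESeq2.

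**Figure D3:**
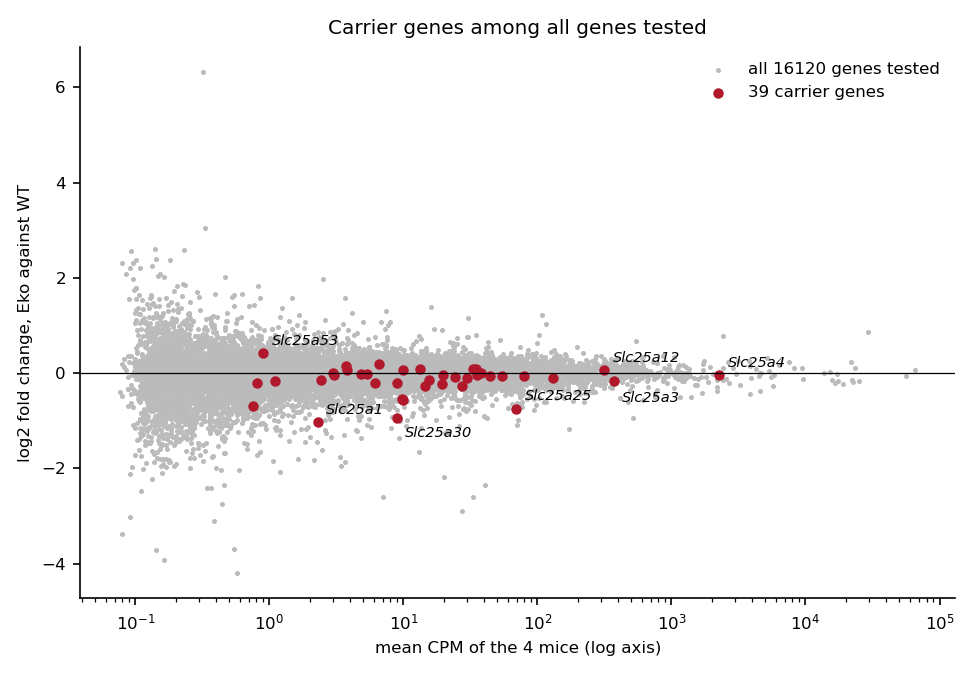
Log2 fold change against mean CPM of the 4 mice (log axis) for all 16120 genes tested (gray) and the 39 carriers (red). The abundant carriers Slc25a4, Slc25a3 and Slc25a12 lie close to 0, and the carriers with the lowest values, Slc25a1 at -1.03 and Slc25a30 at -0.95, are of low or middle level.

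The adenine nucleotide and phosphate carriers supply the ATP synthase and export its product. Slc25a4 (chromosome 8 of GRCm38, 46206797 to 46211284, minus strand) was at 2164 and 2451 CPM in WT and at 2271 and 2199 CPM in Eko mice. The genotypes overlapped, with a log2 fold change of -0.05 (standard error 0.09, 95% interval -0.25 to 0.16, adjusted p = 0.882), which was 0.061 without WT replicate 2. Slc25a3 (chromosome 10, 91116574 to 91124059, minus strand) had 391 and 398 CPM in WT and 347 and 355 CPM in Eko mice. Both Eko mice were lower, by a small amount that differed little between mice of a genotype (log2 fold change -0.17 with standard error 0.06, adjusted p = 0.400). For Slc25a5, the levels were 20.4 and 21.8 CPM in WT and 17.7 and 18.1 CPM in Eko mice, also without overlap (log2 fold change -0.24 with standard error 0.08, adjusted p = 0.324). Of its 75-base stretches, 19.8% are also found in transcripts of 6 other annotated genes, so its count depends on how the authors' counting divided such reads. The ratio of Slc25a4 to Slc25a5 CPM was 106 and 112 in WT and 128 and 121 in Eko mice (exact permutation test, p = 0.333, the smallest possible). Slc25a31, the ADP/ATP carrier of testis, had 0 to 3 counts per mouse and was not tested.

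Slc25a30 and Slc25a22 had the smallest p-values of the family. Slc25a30 (chromosome 14, 75760117 to 75787037, minus strand) encodes KMCP1, a carrier related in sequence to the uncoupling proteins. It was at 12.7 and 10.7 CPM in WT and at 4.96 and 7.21 CPM in Eko mice. Both Eko mice were lower than both WT mice, and their mean was 52.0% of that of WT. The log2 fold change was -0.95 (standard error 0.18, 95% interval -1.39 to -0.51), with an adjusted p of 0.131 in edgeR and 0.000627 in DESeq2. No annotated gene overlaps it on the other strand, and no 75-base stretch of it is found in another gene.

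Slc25a22 (chromosome 7, 141429744 to 141437892, minus strand) encodes a glutamate carrier that moves glutamate together with protons. Its levels were 12.0 and 11.2 CPM in WT and 8.57 and 7.20 CPM in Eko mice, and the Eko mean was 68.0% of that of WT. The genotypes did not overlap, with a log2 fold change of -0.55 (standard error 0.12) and an adjusted p of 0.161 in edgeR and 0.0207 in DESeq2. Slc25a18, the other glutamate carrier, had 5 counts in each mouse.

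The sequences upstream of both genes are shown because MEF2D binds DNA, and the carriers were searched for its site. RefSeq (GRCm38.p6) gave 45 promoter windows, each of 250 bases before to 50 after a transcript start, for 35 of the 46 carriers. The searches were for the MEF2 motif, for TCAAGGTCA, the site of estrogen-related receptors, for the NRF1 consensus, and for TGACGTCA, the cAMP response element, on both strands. Of the 45 windows, 0 held the MEF2 motif, TCAAGGTCA or the NRF1 consensus, which were present in 3.19%, 0.423% and 0.971% of all 32851 promoter windows. At these shares few hits are expected among 45 windows, so 0 is near this background. The study reported MEF2D in gene bodies and farther upstream of other genes, which such windows do not cover. TGACGTCA was in 2 of the 45 (4.44%, against 1.79% of all), those of Slc25a25 and Slc25a36. The carriers' windows had a median GC content of 59%, against 52.7% for all windows. The 250 bases before the start, on the gene's own strand from 5′ to 3′, are at chr14:75787038-75787287 for Slc25a30 and at chr7:141437875-141438124 for Slc25a22, both on the minus strand and all in lower case because none of these motifs is in them.
Slc25a30: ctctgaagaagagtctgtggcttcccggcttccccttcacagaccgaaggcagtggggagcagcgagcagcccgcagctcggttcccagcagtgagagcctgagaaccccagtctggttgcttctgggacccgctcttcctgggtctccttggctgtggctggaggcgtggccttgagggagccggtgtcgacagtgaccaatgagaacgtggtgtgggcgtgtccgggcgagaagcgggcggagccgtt
Slc25a22: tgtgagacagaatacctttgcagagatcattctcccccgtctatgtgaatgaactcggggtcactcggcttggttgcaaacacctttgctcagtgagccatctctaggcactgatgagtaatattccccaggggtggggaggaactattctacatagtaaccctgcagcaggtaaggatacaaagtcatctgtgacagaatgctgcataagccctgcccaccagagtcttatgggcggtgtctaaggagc

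The other uncoupling protein-like carriers showed smaller differences than Slc25a30. Slc25a14 was at 1.16 CPM in both WT mice and at 0.997 and 1.06 CPM in Eko mice (log2 fold change -0.17 with standard error 0.23, adjusted p = 0.818). Slc25a27 was at 6.47 and 6.75 CPM in WT and at 6.26 and 5.19 CPM in Eko mice, again with both Eko mice below (log2 fold change -0.21, adjusted p = 0.590). All 3 genes of the group had both Eko mice below both WT mice, as did 22.96% of all genes tested. The ratio of Slc25a30 to Slc25a14 CPM was 11.0 and 9.18 in WT and 4.98 and 6.79 in Eko mice (exact permutation test, p = 0.333, the smallest possible).

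The aspartate/glutamate carriers export aspartate for the malate-aspartate shuttle. Slc25a12 was at 314 and 304 CPM in WT and at 320 and 326 CPM in Eko mice, and the log2 fold change was 0.06 (standard error 0.06, 95% interval -0.09 to 0.21, adjusted p = 0.767). Slc25a13, at less than 1 CPM, had 0.922 and 0.952 CPM in WT and 0.684 and 0.475 CPM in Eko mice (log2 fold change -0.68 with standard error 0.30, adjusted p = 0.453). Those levels rest on 34 to 77 counts per mouse. The abundant gene thus lay slightly higher and the scarce one lower in both Eko mice, and their ratio in CPM was 341 and 320 in WT and 468 and 685 in Eko mice (exact permutation test, p = 0.333, the smallest possible).

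Among the di- and tricarboxylate carriers, Slc25a11, which completes the malate-aspartate shuttle, was at 133 and 137 CPM in WT and at 129 and 124 CPM in Eko mice (log2 fold change -0.10 with standard error 0.06, adjusted p = 0.616). Slc25a10, the dicarboxylate carrier, had overlapping genotypes (log2 fold change -0.15 with standard error 0.23). Slc25a1 (chromosome 16, 17925223 to 17928219, minus strand), the citrate carrier that supplies acetyl units for fatty acid synthesis, had the lowest log2 fold change of the family in edgeR and DESeq2 on all 4 mice, while in limma-voom that of Slc25a30 was lower (-0.98 against -0.97). Its levels were 4.01 and 2.20 CPM in WT and 1.82 and 1.20 CPM in Eko mice, and the Eko mean was 48.7% of that of WT. The log2 fold change was -1.03 (standard error 0.33, 95% interval -1.81 to -0.25, adjusted p = 0.317), and WT replicate 1 was 1.82-fold above WT replicate 2. Without WT replicate 1, it was -0.53, and over the other mice left out in turn it reached -1.38.

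Fat cells also use the citrate carrier, and their markers were examined beside Slc25a1. Summed over 7 adipocyte markers, the level was 168 and 100 CPM in WT and 95.3 and 71.7 CPM in Eko mice, and no marker was at 0. Of the 7, 0 passed the adjusted threshold, 4 had an unadjusted p below 0.05 and lower levels in Eko mice, as 6.41% of all genes did, and 6 had a log2 fold change below 0. The genotypes overlapped for 5 of the 7, as for 56.2% of all genes tested, and for Lep the log2 fold change was 0.21. Adipoq, the fat cell hormone adiponectin, was at 9.87 and 4.83 CPM in WT and at 4.86 and 2.01 CPM in Eko mice. Cfd, adipsin, was at 48.5 and 16.9 CPM in WT and at 8.60 and 5.72 CPM in Eko mice. Like Slc25a1, 6 of the 7 markers were highest in WT replicate 1, the exception being Lep, and all 7 were lowest in Eko replicate 2. The part of fat cells in the level of Slc25a1 was not tested. Macrophage markers, 4 in all, summed to 17.2 and 13.1 CPM in WT and 13.3 and 9.04 CPM in Eko mice, and the 4 endothelial markers to between 121 and 142 CPM.

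Slc25a25 differed more between mice of one genotype than between genotypes. This gene (chromosome 2, 32414487 to 32451445, minus strand) encodes a carrier that exchanges ATP-Mg for phosphate under the control of calcium and so sets the adenine nucleotide content of the matrix. It was at 31.4 and 143 CPM in WT mice, a 4.57-fold difference, and at 45.4 and 59.0 CPM in Eko mice, which lay between them. The log2 fold change of -0.74 had a standard error of 0.58 and a 95% interval from -2.12 to 0.63 (adjusted p = 0.674). It was -1.46 without WT replicate 1 and 0.75 without WT replicate 2, both past the adjusted threshold, so its direction depended on which WT mouse was kept. Slc25a25 overlaps Naif1 on the other strand, and the strand setting of the counting is not given in the sources used here. The same limit holds for Slc25a11 (Rnf167), Slc25a12 (Gm13641), Slc25a23 (Crb3 and Gm17168), Slc25a26 (Lrig1), Slc25a33 (Gm13068), Slc25a36 (Gm16185), Slc25a37 (Gm27222, Gm27223 and Gm31748) and Slc25a46 (B930094E09Rik).

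The window of Slc25a25 with TGACGTCA, in capitals, is shown because this gene varied most between mice. The 250 bases lie at chr2:32424067-32424316 on the minus strand before an internal transcript start, and the 8 bases run from -150 to -143 from that start.
Slc25a25: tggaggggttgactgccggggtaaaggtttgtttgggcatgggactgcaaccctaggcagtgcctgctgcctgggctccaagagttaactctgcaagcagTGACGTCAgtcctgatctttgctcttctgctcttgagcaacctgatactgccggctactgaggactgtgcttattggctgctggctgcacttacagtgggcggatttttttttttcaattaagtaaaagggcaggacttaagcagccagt

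Activity-induced genes, which respond within minutes to contraction or stress, were examined beside Slc25a25. Of the 7, Nr4a3 and Atf3 were higher in replicate 2 of both genotypes, as Slc25a25 was, Fos, Fosb, Junb and Egr1 were higher in replicate 1 of both, and Nr4a1 was neither. Nr4a3 was at 3.06 and 13.8 CPM in WT and at 1.77 and 8.75 CPM in Eko mice. Fos was at 7.64 and 3.33 CPM in WT and at 8.70 and 2.94 CPM in Eko mice, and Egr1 at 22.1 and 2.99 CPM in WT and at 10.1 and 2.70 CPM in Eko mice. Of the 7 activity-induced genes 0 were called by edgeR, and their part in the level of Slc25a25 was not tested. The related Slc25a23 was at 18.5 and 13.2 CPM in WT and at 14.4 and 11.7 CPM in Eko mice (log2 fold change -0.27 with standard error 0.17), and Slc25a24 was at 3.37 and 2.78 CPM in WT and at 2.93 and 3.01 CPM in Eko mice. Slc25a41 had 0 to 3 counts per mouse.

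**Figure D4:**
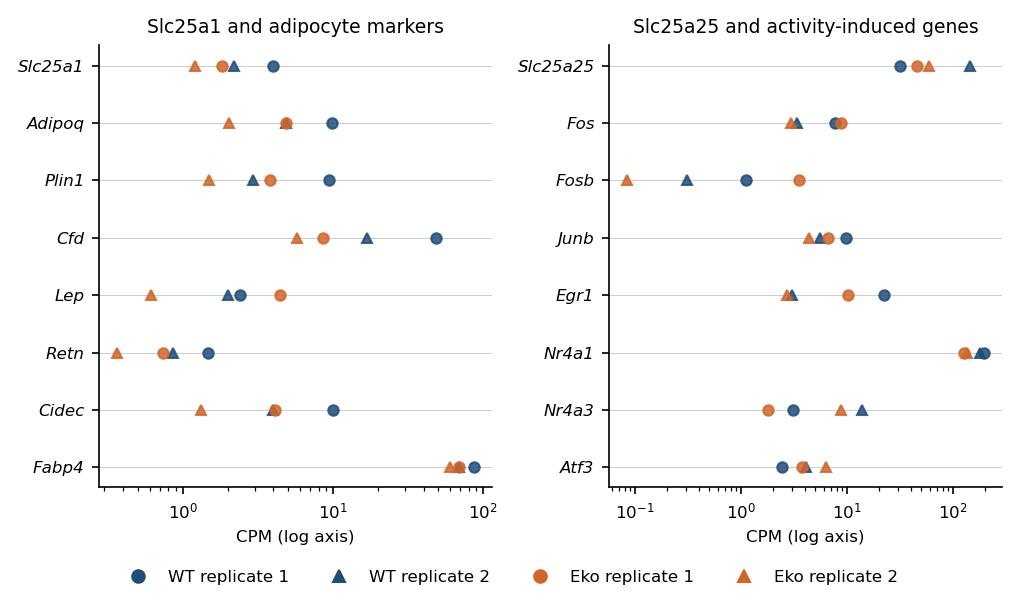
CPM per mouse on log axes of Slc25a1 above 7 adipocyte markers (left) and of Slc25a25 above 7 activity-induced genes (right), with 1 symbol per mouse. Slc25a1 and 6 of the markers are highest in WT replicate 1, and Slc25a25 is highest in WT replicate 2, as is Nr4a3.

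The 5 tested carriers of acylcarnitines and of basic, neutral and branched amino acids had log2 fold changes between -0.15 and 0.18. Slc25a20, which brings acylcarnitines into the matrix for beta-oxidation, was at 44.8 and 45.2 CPM in WT and at 43.0 and 43.7 CPM in Eko mice (log2 fold change -0.05 with standard error 0.07, 95% interval -0.21 to 0.10, adjusted p = 0.797). Slc25a44, the branched-chain amino acid carrier, was at 32.2 and 31.9 CPM in WT and at 33.4 and 34.2 CPM in Eko mice, both Eko mice being slightly higher (log2 fold change 0.08, adjusted p = 0.706). Slc25a38, the glycine carrier of heme synthesis, was at 5.47 and 6.85 CPM in WT and at 6.42 and 7.56 CPM in Eko mice, with overlap (log2 fold change 0.18 with standard error 0.15, adjusted p = 0.691). Slc25a15 and Slc25a29, carriers of ornithine and basic amino acids, overlapped between the genotypes. Slc25a2 had 5 to 15 counts per mouse and was not tested.

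Of the 11 cofactor and nucleotide carriers, 9 had overlapping genotypes, as did 56.2% of all genes tested. Slc25a39 (chromosome 11, 102402985 to 102407946, minus strand), which brings glutathione into mitochondria, was at 31.0 and 29.2 CPM in WT and at 24.96 and 24.76 CPM in Eko mice. The levels of the Eko mice were 82.6% of WT on average, with little spread within either genotype (log2 fold change -0.28 with standard error 0.07, 95% interval -0.45 to -0.11, adjusted p = 0.235). Its relative Slc25a40 overlapped, at 3.77 and 3.65 CPM in WT and 4.46 and 3.26 CPM in Eko mice. Slc25a33, a pyrimidine nucleotide carrier, was the other gene of the group without overlap, at 9.25 and 9.85 CPM in WT and 8.34 and 8.19 CPM in Eko mice (log2 fold change -0.21, adjusted p = 0.472). The second pyrimidine nucleotide carrier, Slc25a36, was at 35.2 and 32.9 CPM in WT and at 36.97 and 35.1 CPM in Eko mice (log2 fold change 0.08). Slc25a51 was at 80.2 and 82.9 CPM in WT and at 76.1 and 80.4 CPM in Eko mice. Slc25a17, the peroxisomal carrier of the group, was at 3.70 and 3.35 CPM in WT and at 3.63 and 4.14 CPM in Eko mice (log2 fold change 0.14). Slc25a26, the S-adenosylmethionine carrier, was at 11.96 and 13.98 CPM in WT and at 14.3 and 13.4 CPM in Eko mice (log2 fold change 0.09), and both genes overlapped between the genotypes.

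The mitoferrins import iron for heme and iron-sulfur clusters, and both lay close to equal. Slc25a28 was at 20.1 and 19.8 CPM in WT and at 19.8 and 18.9 CPM in Eko mice (log2 fold change -0.04 with standard error 0.07). Slc25a37, the mitoferrin of red cell precursors, was at 31.5 and 29.7 CPM in WT and at 29.2 and 27.9 CPM in Eko mice (log2 fold change -0.10 with standard error 0.07, adjusted p = 0.665). Of the 75-base stretches of Slc25a37, 6.55% are shared with 1 other gene, Gm16867. The summed level of the 5 erythroid markers was between 108 and 111 CPM in all mice.

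Of the 8 remaining carriers, which include an outer membrane protein and carriers of uncertain substrate, 6 were tested. Slc25a34 (chromosome 4, 141618824 to 141623821, minus strand) was at 11.3 and 12.6 CPM in WT and at 9.53 and 6.58 CPM in Eko mice. Both Eko mice were lower, and they differed from each other 1.45-fold (log2 fold change -0.57 with standard error 0.17, 95% interval -0.97 to -0.16, adjusted p = 0.297). Slc25a53 had the highest log2 fold change of the family, 0.41 (standard error 0.27, adjusted p = 0.611), at 0.883 and 0.668 CPM in WT and 0.974 and 1.09 CPM in Eko mice, from 54 to 84 counts per mouse. It overlaps Gm15038 and Zcchc18 on the other strand. Slc25a46, which lies in the outer membrane and takes part in mitochondrial dynamics, was between 53.4 and 58.2 CPM (log2 fold change -0.06), and Slc25a35, Slc25a45 and Slc25a47 overlapped.

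**Figure D5:**
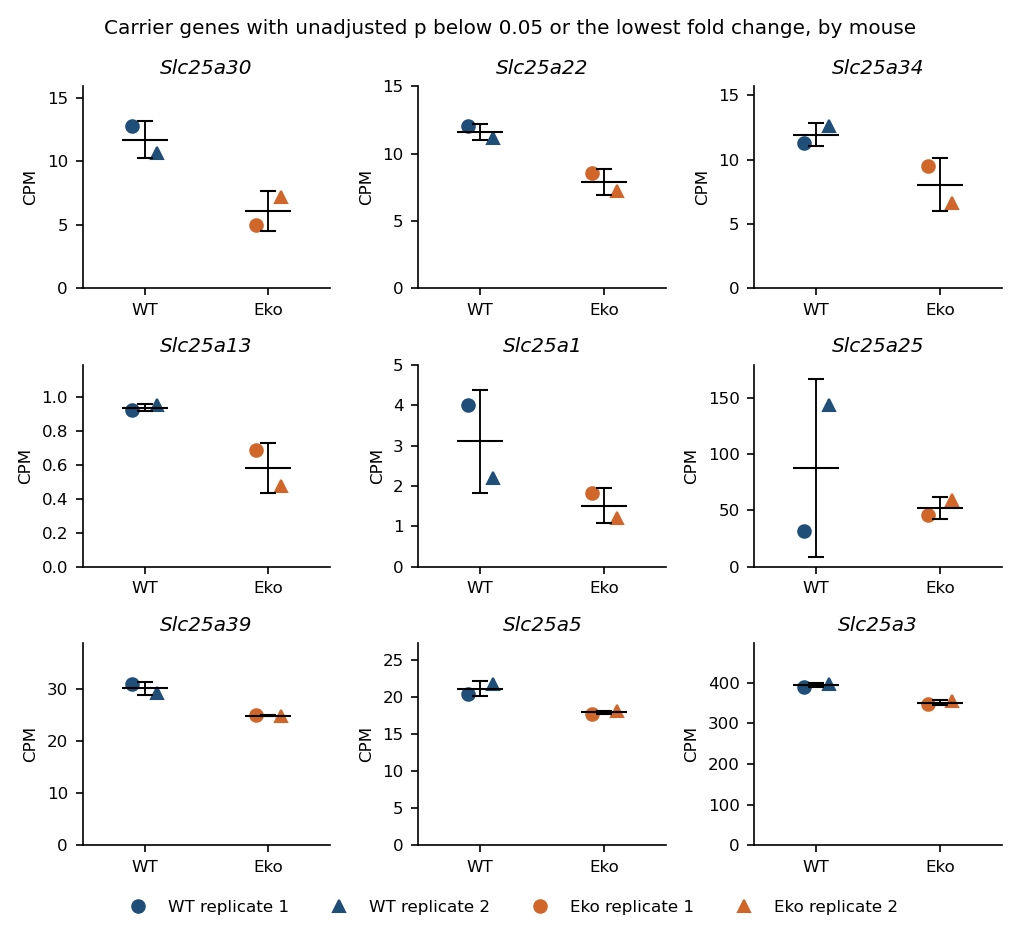
CPM of 9 carriers in each mouse, those with an unadjusted p below 0.05 or among the 5 lowest log2 fold changes, with the mean and SD (n = 2 mice per genotype) as bars and all axes from 0. The genotypes do not overlap in 8 panels, as for 43.8% of all genes tested, but these genes were picked by the same comparison. In the panel of Slc25a25 the WT mice enclose the Eko mice.

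The 7 members below the filter were near the limit of detection. Besides Slc25a2, Slc25a18, Slc25a31 and Slc25a41, Slc25a43 had 4 and 1 counts in WT and 0 in both Eko mice, and Slc25a48 had 3 counts in each WT mouse and 0 in both Eko mice. Slc25a21, the oxoadipate carrier, had 0 in both WT mice and 4 and 1 counts in Eko mice. These genes were not tested in the main fit, so whether they differ between the genotypes cannot be told at this depth.

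Genes that work beside the carriers were examined as 7 lists with 66 genes. Of the 65 tested, 1 was called by edgeR, as were 0.416% of all genes tested. That gene was Bdh1, the matrix enzyme that interconverts the ketone bodies 3-hydroxybutyrate and acetoacetate, at 29.8 and 28.1 CPM in WT and 13.5 and 10.7 CPM in Eko mice. Both Eko mice were far below WT (log2 fold change -1.26 with standard error 0.12, adjusted p = 0.0301). The study reported lower Bdh1 from these same libraries, so this call is not a separate finding. DESeq2 also called Bdh1 and, of the 7 lists, Micu3 and Nr4a1, where it called 2.39% of all genes with an adjusted p. The other 11 enzymes next to the carriers, such as Got1 and Mdh1 of the malate-aspartate shuttle and Cpt2 of acylcarnitine breakdown, were not called, although both Eko mice were below both WT mice for 10 of the 12 in all, as for 22.96% of all genes tested. Cpt2 was at 63.7 and 61.6 CPM in WT and 53.1 and 54.1 CPM in Eko mice (log2 fold change -0.22 with standard error 0.07, adjusted p = 0.284). Got1, the cytosolic aspartate aminotransferase, was at 249 and 221 CPM in WT and at 204 and 203 CPM in Eko mice (log2 fold change -0.21, adjusted p = 0.384).

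Carrier family genes under other symbols were also not called. Ucp3, the uncoupling protein of skeletal muscle, was at 112 and 116 CPM in WT and at 74.5 and 112 CPM in Eko mice, with Eko replicate 1 apart from the other mice (log2 fold change -0.29 with standard error 0.17, adjusted p = 0.571). Ucp2 was at 6.52 and 6.64 CPM in WT and at 5.29 and 5.49 CPM in Eko mice (log2 fold change -0.29, adjusted p = 0.385). Ucp1, the uncoupling protein of brown fat, had no count in any mouse. Of 18 other inner membrane transporters, 0 were called by edgeR, and DESeq2 called Micu3, a regulator of the mitochondrial calcium uniporter, which was higher in Eko mice at 23.1 and 23.8 CPM against 17.89 and 17.95 CPM in WT (log2 fold change 0.39, adjusted p = 0.0169 in DESeq2 and 0.118 in edgeR). Mcu, the pore of the same uniporter, was at 27.5 and 25.9 CPM in WT and at 31.4 and 33.2 CPM in Eko mice (log2 fold change 0.27, adjusted p = 0.251).

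The import machinery of carrier proteins (13 genes), the voltage-dependent anion channels of the outer membrane (3 genes) and the genes of mitochondrial content (8 genes) had 0 called in either edgeR or DESeq2. Their median log2 fold changes were -0.06, 0.02 and 0.01. Of the mitochondrial content genes, Sdha was between 568 and 610 CPM, and the genotypes overlapped for 6 of 8, as for 56.2% of all genes tested. For the enzymes next to the carriers, the median was -0.12. Of the activity-induced list, 1 gene was called by DESeq2 alone, Nr4a1, which was lower in Eko mice at 126 and 135 CPM against 195 and 178 CPM in WT (adjusted p = 7.36e-06 in DESeq2 and 0.0619 in edgeR).

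Fiber markers were examined beside the carriers, and edgeR called none of the 9. Myh2, the myosin of type IIa fibers, was at 1576 and 1709 CPM in WT and at 1264 and 1040 CPM in Eko mice (log2 fold change -0.51, adjusted p = 0.161 in edgeR and 0.000450 in DESeq2). Mb, myoglobin, was at 1430 and 1302 CPM in WT and at 1050 and 884 CPM in Eko mice (log2 fold change -0.50, adjusted p = 0.156 in edgeR and 0.000355 in DESeq2). Myh1, the myosin of type IIx fibers, was at 4965 and 3983 CPM in WT and at 3475 and 3120 CPM in Eko mice (log2 fold change -0.44, adjusted p = 0.261 in edgeR and 0.0137 in DESeq2). These 3 genes had both Eko mice below both WT mice, as did Acta1, while Mylpf and Tnnt3, fast fiber genes, had log2 fold changes of 0.12 and 0.11. Myh7, the myosin of slow fibers, overlapped, at 113 and 339 CPM in WT and 237 and 145 CPM in Eko mice. Myh4, the myosin of type IIb fibers and by far the most abundant, was at 64342 and 64346 CPM in WT and at 65443 and 69572 CPM in Eko mice. For Myh4 both Eko mice were above both WT mice, as for 20.8% of all genes (log2 fold change 0.07, adjusted p = 0.825 in edgeR). The 4 fiber type myosins together were between 70377 and 73878 CPM. Of these 4 myosins, edgeR called 0 and DESeq2 called Myh2 and Myh1, both lower in Eko mice. The part of fiber type in the carrier levels was not tested. The 4 Schwann cell markers each had both Eko mice above both WT mice, as 20.8% of all genes did, with 0 called, and summed to 27.2 and 29.7 CPM in WT and 32.9 and 40.5 CPM in Eko mice.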

How the data were processed

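PolyA RNA of the quadriceps was sequenced on an Illumina NovaSeq from TruSeq Stranded libraries of 2 WT and 2 Eko mice. Per the labels, STAR 2.6.1a and the mm10 (GRCm38) build were used, and the authors estimated expected counts per gene with RSEM and the Ensembl annotation, which were deposited without normalization. RSEM divides reads shared by several genes with a probability model, and whether strand was used in counting is not given in the sources used here. The deposited expected counts were whole numbers in every cell (0 values were not whole), so rounding altered none. Groups and replicate numbers came from the labels. Nothing in the labels pairs the mice. The p-values of edgeR and DESeq2 rest on the spread between these 4 animals, with each gene's estimate drawn toward that of other genes.

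Counts were analysed in R 4.3.3 with edgeR 4.0.16 (TMM, default filter on low counts, quasi-likelihood test with genotype alone, prior count 0.125, Benjamini-Hochberg adjustment over 16120 genes, threshold 0.05). The methods were tested on simulated data. Alternatives were DESeq2 1.42.0, the edgeR likelihood ratio test, limma-voom (limma 3.58.1), RLE and upper-quartile scaling, no filter, at least 1 CPM in 2 libraries, a replicate block, each mouse left out in turn and, added after seeing the data, DESeq2 on all genes with any count. Summed levels and ratios were compared with the exact two-sided permutation test. Positions, transcript lengths (median of coding transcripts) and overlaps came from GENCODE M21 on GRCm38, which can differ from the authors' annotation. Shared sequence was counted as 75-base stretches of a gene's transcripts found in transcripts of another gene. The MEF2 motif was searched as its standard consensus.

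The members and gene lists were chosen with earlier results of these data known. Genes were named with every mouse's value if called by edgeR or DESeq2, if among the 5 highest or 5 lowest log2 fold changes or the 10 highest levels per kb, if 2 mice of a genotype differed by over 2-fold, if related in sequence to another member, or if below the filter. Slc25a10, Slc25a15, Slc25a16, Slc25a27, Slc25a29, Slc25a32, Slc25a35, Slc25a42, Slc25a44, Slc25a45, Slc25a46 and Slc25a47, genes of the other lists that were not called, and the marker genes given beside a carrier were named outside this rule, after their values were seen.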

Additional observations from a re-analysis of the deposited data

How the results depend on the processing

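The number of carriers called by edgeR, 0 of 39, moved under several settings. It was 2 with DESeq2, 2 with the likelihood ratio test, 2 with DESeq2 on all genes with any count, 5 with no filter on low counts and 1 to 4 with each mouse left out, and it stayed at 0 with limma-voom, RLE and upper-quartile scaling and the 1 CPM filter. With the replicate number as a block, 1 carrier was called, Slc25a22. The numbers name different mice, and the deviations of same-numbered mice correlated at r = 0.162 over 16120 genes, with only 2 pairs, so the block is not a pairing by design. For all genes, 67 were called by edgeR quasi-likelihood, against 318 with DESeq2, 312 with the likelihood ratio test, 284 with DESeq2 on all genes, 799 with no filter, 23 at 1 CPM, 186 with the block and 99 to 299 with a mouse left out. Leaving a mouse out leaves 1 mouse in its genotype, which is assumed to vary like the other genotype.

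Slc25a30 was called in 7 of 13 alternatives and stayed between -1.24 and -0.68 (log2). Slc25a22 was called in 6 of 13, Slc25a1 in 3 and Slc25a34 in 2, all lower in Eko mice throughout. Leaving out a mouse turned the direction of 15 of the 39 carriers: Slc25a4 (-0.13 to 0.061), Slc25a10 (-0.40 to 0.070), Slc25a15 (-0.27 to 0.011), Slc25a16 (-0.045 to 0.072), Slc25a24 (-0.17 to 0.095), Slc25a25 (-1.46 to 0.75), Slc25a26 (-0.014 to 0.22), Slc25a29 (-0.086 to 0.067), Slc25a32 (-0.052 to 0.21), Slc25a35 (-0.15 to 0.12), Slc25a40 (-0.17 to 0.27), Slc25a42 (-0.16 to 0.11), Slc25a45 (-0.55 to 0.078), Slc25a46 (-0.11 to 0.00037) and Slc25a47 (-0.15 to 0.17). Slc25a47, at -0.0012 with edgeR quasi-likelihood, was also above 0 with DESeq2 (0.0058), limma-voom (0.0052), RLE scaling (0.0060) and DESeq2 on all genes with any count (0.0074). Without WT replicate 1 Slc25a25 was the 1 carrier called, and without WT replicate 2 it was called as higher in Eko mice, with Slc25a1 and Slc25a30 lower (3 carriers). Without Eko replicate 1, 4 were called (Slc25a1, Slc25a22, Slc25a30 and Slc25a34), and without Eko replicate 2, 1 (Slc25a30). The median log2 fold change of the carriers was between -0.12 and -0.05 in all settings, and 62.5% to 75% of the carriers were below 0. With 2 mice per genotype, the 95% interval of a carrier with little spread, such as Slc25a20, still spans -0.21 to 0.10. The causes of these shifts were not tested.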
